A study of Mus musculus with 2 samples.

Results

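Expression of glycolysis and glycogen metabolism genes was compared in gastrocnemius, a muscle of the calf, from 1 Pdgfra-CreER:R26-DTA mouse and 1 wild type:R26-DTA littermate. The genes were taken from a list of 38, by the symbol of the probe in the platform's annotation. Of these, 34 had a probe, 35 probes in all, out of 19321 named genes on the array, and all 34 were above background on both arrays. Gpi1, Pfkfb1, Eno1 and Ppp1r3a were not analysed here.

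In Pdgfra-CreER:R26-DTA mice, called depleted here, a tamoxifen-activated Cre recombinase made where the Pdgfra promoter is active switches on diphtheria toxin A, which is meant to kill PDGFRα-positive mesenchymal progenitors of the muscle interstitium. The littermate, called control, carried the R26-DTA allele without the Cre transgene, so the presence of CreER cannot be told apart from depletion. Both animals were female and 10 weeks old, both received tamoxifen from 9 weeks of age on 5 days in a row, and both muscles were frozen 2 days after the last dose. Each group is 1 animal on 1 array. No value has a replicate error, no test was possible, array and group cannot be told apart, and any difference may be one between 2 animals.

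Glycolysis splits glucose into pyruvate in the cytosol and yields ATP without oxygen, and fast muscle fibres rely on it during short bursts of work. Muscle also stores glucose as glycogen, which phosphorylase releases as glucose 1-phosphate when calcium and energy demand activate it. Most steps have a muscle isoform made in fibres and sister isoforms made in other cells, so whole-muscle RNA can hold several isoforms of one step. In such bulk RNA, fewer cells of a type and less RNA per cell cannot be told apart.

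Values are given as the authors' processed intensity on each array, in arbitrary units, and as a log2 ratio of depleted over control after the spots of both arrays were background-corrected and quantile-normalized. Ratios of dim genes are drawn toward 0 by the correction. A gene was counted as lower or higher past 2-fold, a rule of size and no test. The spread between probes shows how far probes of one gene disagree: over 396 genes with at least 2 probes of middle or higher brightness, the ratios of the 2 brightest probes differed by a median of 0.15, with a 95th percentile of 0.56. Probes of one gene share the RNA, the labelling and the arrays. Errors of those steps, and differences between animals, are thus not in this spread.

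Promoter sequence is shown for the 2 members with the lowest and the 2 with the highest ratio among the 32 that RefSeq's promoter table (GRCm38.p6) held; Gpd1 and Slc2a4 were not in it. Each is the 250 bases before the most upstream start in that table, 5′ to 3′ on the gene's strand. Capitals mark matches on either strand to CANNTG (the E-box bound by myogenic and other bHLH factors), ACGTG (the core of the hypoxia response element), GTAAACA (a FoxO core), TCAGGTT (a MEF3 core) and the MEF2 consensus. Pgam2 lies at chr11:5803797-5804046 (minus strand), Phkg1 at chr5:129879089-129879338 (minus), Ugp2 at chr11:21371268-21371517 (minus) and Pfkfb3 at chr2:11553930-11554179 (minus).
Pgam2: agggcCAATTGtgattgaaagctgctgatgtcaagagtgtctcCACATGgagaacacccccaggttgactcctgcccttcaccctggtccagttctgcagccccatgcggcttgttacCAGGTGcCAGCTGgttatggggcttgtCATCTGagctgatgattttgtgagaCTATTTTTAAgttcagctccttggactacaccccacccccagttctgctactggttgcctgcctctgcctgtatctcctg
Phkg1: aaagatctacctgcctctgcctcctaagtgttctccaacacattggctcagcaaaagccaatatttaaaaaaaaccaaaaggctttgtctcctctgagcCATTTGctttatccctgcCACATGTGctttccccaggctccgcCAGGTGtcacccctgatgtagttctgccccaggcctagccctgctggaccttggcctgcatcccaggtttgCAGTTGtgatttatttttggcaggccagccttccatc
Ugp2: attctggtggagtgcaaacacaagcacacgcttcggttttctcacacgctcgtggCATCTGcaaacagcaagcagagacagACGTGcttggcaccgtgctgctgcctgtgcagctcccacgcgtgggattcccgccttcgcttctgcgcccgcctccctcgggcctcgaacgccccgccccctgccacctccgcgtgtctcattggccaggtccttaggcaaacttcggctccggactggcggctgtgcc
Pfkfb3: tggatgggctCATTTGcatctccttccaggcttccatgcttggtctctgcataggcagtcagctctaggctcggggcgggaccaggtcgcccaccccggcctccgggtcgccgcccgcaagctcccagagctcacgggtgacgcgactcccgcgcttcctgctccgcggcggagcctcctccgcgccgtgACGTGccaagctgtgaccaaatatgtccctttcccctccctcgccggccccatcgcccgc

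The promoter window of Pgam2 holds 5 CANNTG matches and a MEF2 match, CTATTTTTAA, that begins 80 bases before the start. That of Phkg1 also holds 5 CANNTG matches, of which a pair overlaps in CACATGTG, and neither holds ACGTG. The windows of Pfkfb3 and Ugp2 each hold 1 ACGTG, beginning 60 and 169 bases before the start, and 1 CANNTG. Over all starts in the table, ACGTG was found before 17 of the 32 members (53.1%), against 18.5% of 27025 genes. CANNTG was found before 22 members, or 68.8%, against 69.3% of all genes, and the MEF2 consensus before 1 member, or 3.12%, against 3.42%. GGGCGG (the GC box bound by Sp factors), searched too but not capitalised, was found before 18 members, or 56.2%, against 35.4% of all genes, and lies once in the window of Ugp2 and at 2 places in that of Pfkfb3. GTAAACA and TCAGGTT were each found before 1 member (3.12%), against 3.54% and 4.07% of all genes. ACGTG within CACGTG also counts as CANNTG, and genes with several starts had several windows. A match of letters is a description and no evidence of binding.

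The muscle phosphoglycerate mutase, the cytosolic glycerol phosphate dehydrogenase and the catalytic subunit of phosphorylase kinase were lower in depleted muscle, and an enzyme that makes the activator of phosphofructokinase was higher. Pgam2, Gpd1 and Phkg1 were at least 2-fold lower, which is 3 of 34 members or 8.82%, against 0.427% of all 18498 genes compared. Pfkfb3 alone was at least 2-fold higher, 1 of 34 or 2.94%, against 0.492% of all genes. Bright genes pass 2-fold more often under this correction, and 27 of the members were among the brightest 20% of genes, where 1.78% were lower and 1.81% higher past 2-fold. In the brightest 10%, a group computed first, 37 of 1850 genes were lower and 39 higher. The share of members that were higher, 1 gene, is thus close to that of bright genes. The median over the members was -0.22, against 0.00 over all genes and -0.01 over the brightest 20%.

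At 1.5-fold, 6 members were lower (17.6%, against 1.52% of all genes and 5.54% of the brightest 20%) and 2 were higher (5.88%, against 1.96% and 6.49%). By sign alone, 21 of 34 members were lower, or 61.8%, against 52.4% of all genes. Scaling to the median in place of quantile normalization left the median of all genes near 0 (-0.02) but put that of the brightest 20% at 0.26 and that of the members at -0.03, so only Pgam2 stayed past 2-fold lower. Under it 85.0% of all genes past 2-fold were higher, against 53.5% in the main setting. Under both scalings the members' median thus lay below that of the brightest 20%.

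**Figure D1:**
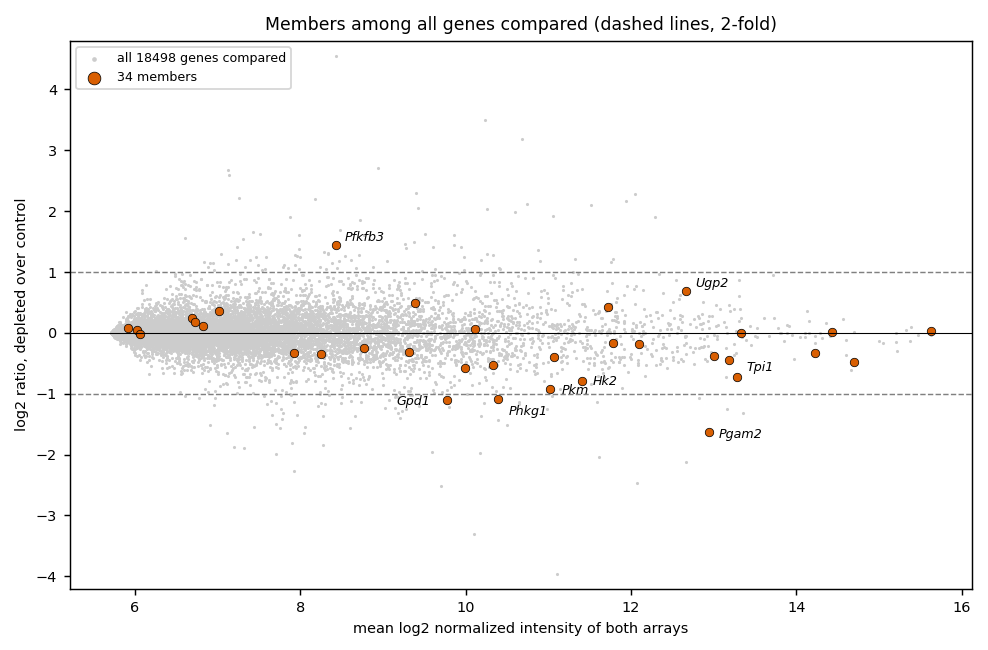
Log2 ratio of depleted over control (vertical axis) against the mean log2 normalized intensity of both arrays (horizontal axis) for 18498 genes (grey) and the 34 members (orange), with 1 array per group and dashed lines at 2-fold. Pgam2 (-1.63), Gpd1 (-1.10) and Phkg1 (-1.09) lie below the lower line and Pfkfb3 (1.45) above the upper one.

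Glucose enters fibres through transporters, and lactate leaves or enters through monocarboxylate carriers. Slc2a4, the insulin- and contraction-responsive glucose transporter of muscle, had processed intensities of 4998.7 in control and 4535.1 in depleted muscle. Its log2 ratio was -0.18, and 0.17 with scaling to the median, so it has no settled direction. Slc2a1, the basal glucose transporter of many cell types, was at 66.9 in control and 103.3 in depleted muscle, with a ratio of 0.36.

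Both lactate carriers were lower in depleted muscle. Slc16a3, the carrier that exports lactate from fast fibres, was at 1593.6 in control and 1122.3 in depleted muscle, a ratio of -0.52. Slc16a1, which also takes lactate up in oxidative fibres, was at 315.1 and 239.2, a ratio of -0.35. Neither reached 1.5-fold, and with scaling to the median they were at -0.19 and -0.09.

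The first steps trap glucose as glucose 6-phosphate and commit it to glycolysis. Hk2, the insulin-responsive hexokinase of muscle, was 1.73-fold lower: 3803.4 in control and 2207.9 in depleted muscle, a log2 ratio of -0.79. It was lower under the 3 other scalings but at 0.85 with the local background column subtracted. Hk1, the hexokinase found in most tissues, was dim on both arrays, at 13.6 and 15.6, with a ratio of 0.04. The muscle isoform had the lower ratio of the pair in the main setting, but not with the local background subtracted, where Hk1 was at -0.38.

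Phosphofructokinase is the main control point of the pathway. Its muscle isoform Pfkm was at 12202.6 in control and 10345.9 in depleted muscle, with a ratio of 0.00 in the main setting, 0.07 with scaling to the median, -0.33 with cyclic loess and -0.24 in the processed values. No direction can be given for it. The liver isoform Pfkl was dim, at 16.7 and 15.5 (-0.02). The platelet isoform Pfkp was at 46.3 in control and 66.1 in depleted muscle, a ratio of 0.25.

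The enzymes that set phosphofructokinase activity and that reverse its step differed from each other. Pfkfb3, a bifunctional enzyme that makes fructose 2,6-bisphosphate, the activator of phosphofructokinase, was 2.73-fold higher. Its processed intensity was 170.7 in control and 572.4 in depleted muscle, or 3.35-fold, and its log2 ratio of 1.45 was the highest of the members. It stayed past 2-fold in all alternatives that were run, from 1.45 in the main setting to 2.82 with the local background subtracted. Fbp2, the muscle fructose 1,6-bisphosphatase, which runs the step backwards, was at 2578.5 and 2001.6, a ratio of -0.39 that shrank to -0.05 with scaling to the median.

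**Figure D2:**
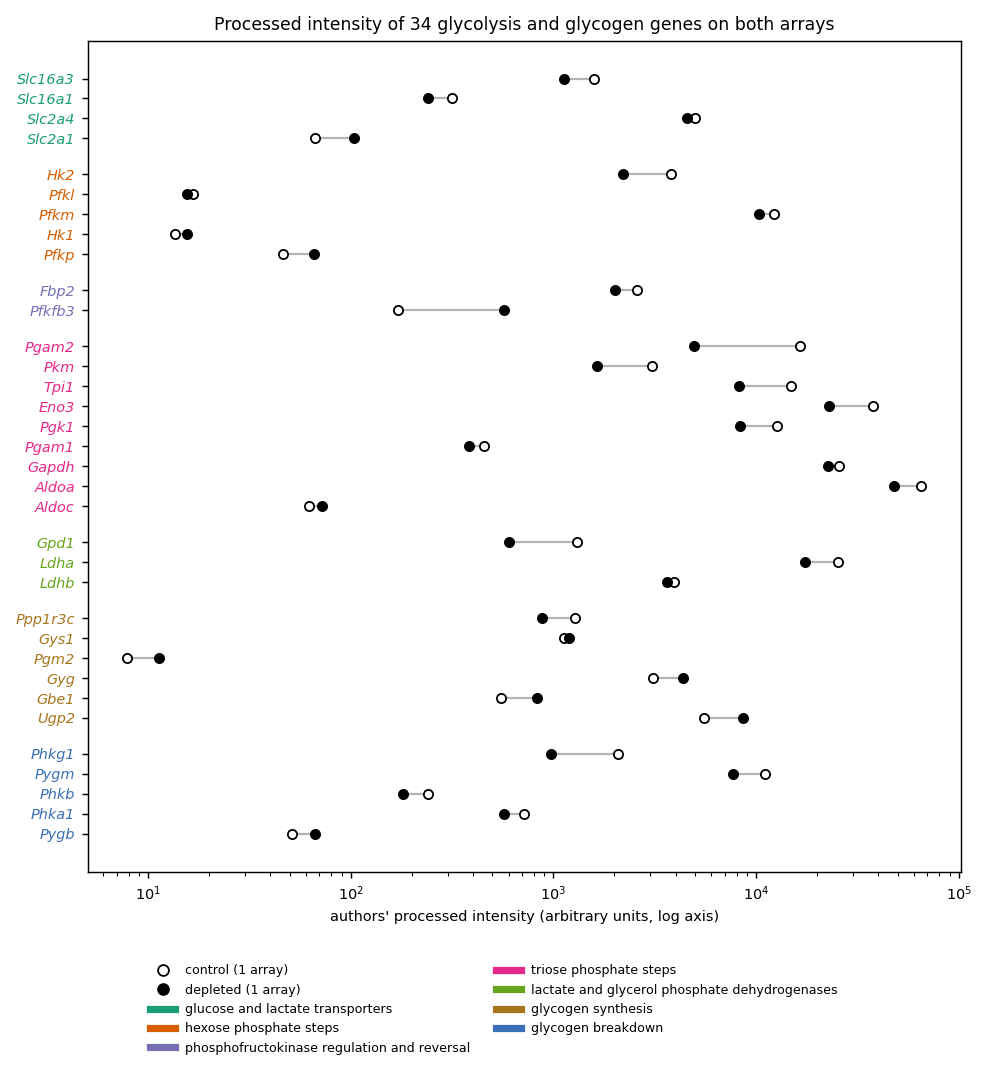
Authors' processed intensity (horizontal log axis, arbitrary units) of the 34 members on the control array (open circles) and the depleted array (filled circles), 1 array each, grouped and coloured by role. The widest gaps are those of Pfkfb3 (170.7 to 572.4) and Pgam2 (16394.0 to 4938.4); intensities of different probes cannot be set against each other.

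The enzymes from aldolase to pyruvate kinase carry the energy-yielding part of glycolysis. Pgam2, the muscle phosphoglycerate mutase, was 3.10-fold lower, with processed intensities of 16394.0 in control and 4938.4 in depleted muscle. Its log2 ratio of -1.63 was the lowest of the members and ran from -1.80 with cyclic loess to -1.41 with scaling to the median; only subtraction of the local background brought it within 2-fold, at -0.90. Pgam1, the isoform of other tissues, was at 455.9 and 384.6, a ratio of -0.25 in the main setting and 0.05 with scaling to the median. The muscle isoform thus had the lower ratio of the pair, also with the local background subtracted, where Pgam1 was at 0.66.

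Pkm, pyruvate kinase, was 1.89-fold lower, at 3049.7 in control and 1632.6 in depleted muscle (-0.92). Its splice forms M1 and M2 were not told apart by this probe's annotation. Tpi1, triose phosphate isomerase, was 1.65-fold lower, at 14873.1 and 8197.3 (-0.72). Both kept their direction under the 3 other scalings, from -0.92 to -0.58 for Pkm and from -0.95 to -0.54 for Tpi1. With the local background subtracted Tpi1 was at 0.20.

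Pgk1, which makes the first ATP of the pathway, was at 12732.0 in control and 8370.4 in depleted muscle, a ratio of -0.44. Eno3, the muscle enolase, was at 37856.7 and 22856.9 by its brighter probe, a ratio of -0.48, or 1.66-fold lower in processed values. Its other probe was near the background limit, at 2.1 and 1.4, with a ratio of -0.02, and adds no second measurement. Both genes were thus lower by less than 1.5-fold in the main setting and by more in the processed values.

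Gapdh, often used as a reference gene, and Aldoa gave no settled direction. Gapdh, which couples the pathway to NAD reduction, was at 25524.7 in control and 22550.7 in depleted muscle, with ratios of 0.01 in the main setting, 0.13 with scaling to the median and -0.29 with cyclic loess. Aldoa, the muscle aldolase, was at 65278.9 and 47676.9, with ratios of 0.04 in the main setting, -0.14 with scaling to the median, -0.59 with cyclic loess and -0.45 in the processed values. Aldoa was the brightest probe of the depleted array, and quantile normalization gives the brightest probe of each array the same value. Its unscaled spot was 51334 in control and 50836 in depleted muscle. Aldoc, the brain aldolase, was at 62.2 and 72.1 (0.11).

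Pyruvate is turned to lactate, or cytosolic NADH is passed to mitochondria through glycerol 3-phosphate. Ldha, the muscle-type lactate dehydrogenase subunit, was at 25405.4 in control and 17452.0 in depleted muscle, a ratio of -0.33. Ldhb, the heart-type subunit, was at 3953.0 and 3639.8, a ratio of -0.16 that turned to 0.19 with scaling to the median.

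Gpd1, the cytosolic glycerol 3-phosphate dehydrogenase, was 2.14-fold lower than in control muscle. It was at 1312.1 in control and 600.7 in depleted muscle, a log2 ratio of -1.10, which came within 2-fold with scaling to the median (-0.77). Gpd2, its mitochondrial partner in the glycerol phosphate shuttle, which is not on the list of 38, was 2.07-fold lower as well, at 818.9 and 376.5 (-1.05). Gpd2, too, came within 2-fold with scaling to the median (-0.74). Gpd1 and Gpd2 were therefore both lower on the array of depleted muscle. Gpd1l, also not on the list of 38, was at 201.9 in control and 217.7 in depleted muscle (0.08).

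Over the 23 measured glycolysis members, transporters and dehydrogenases included, 16 were lower and 7 higher, with a median of -0.25. The 9 from aldolase to pyruvate kinase had a median of -0.44, with 6 lower, of which 3 past 1.5-fold. Of all genes compared, 52.4% were lower by sign. Past 1.5-fold, 1.52% of all genes and 5.54% of the bright genes described above were lower. The median of the 9 genes was -0.29 with scaling to the median, -0.69 with cyclic loess and -0.61 in the processed values. With the local background column subtracted it was 0.20.

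Glycogen is built from UDP-glucose on a glycogenin primer and is branched as it grows. Of the 6 measured genes of glycogen synthesis, 5 were higher in depleted muscle, with a median of 0.25, and only Ppp1r3c was lower. Among the higher ones, Gys1 (0.06) and the dim Pgm2 (0.07) were near 0. Ugp2, which makes UDP-glucose, was 1.61-fold higher, at 5531.9 in control and 8629.4 in depleted muscle, a ratio of 0.69. Gbe1, the branching enzyme, was at 551.4 and 824.9 (0.50).

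Gyg, glycogenin, which primes each particle, was at 3098.9 in control and 4371.1 in depleted muscle, a ratio of 0.43. Ugp2, Gbe1 and Gyg were higher under the 3 other scalings too, from 0.56 to 0.95, from 0.52 to 0.82 and from 0.43 to 0.80. With the local background subtracted, Ugp2 was at 1.03 but Gbe1 and Gyg were at -0.73 and -2.39. Gys1, the muscle glycogen synthase itself, was at 1121.0 and 1193.6, a ratio of 0.06.

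Ppp1r3c, a subunit that brings protein phosphatase 1 to glycogen and activates the synthase, was at 1281.9 in control and 873.6 in depleted muscle, a ratio of -0.58. The subunit thus differed in direction from Ugp2, Gbe1 and Gyg in the main setting. Pgm2 was dim, at 7.9 and 11.3 (0.07). RefSeq lists each of the mouse symbols Pgm1 and Pgm2 among the synonyms of the other, and by gene identifier this Pgm2 probe is not the main muscle phosphoglucomutase.

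That enzyme, now Pgm1, links glycogen to glycolysis by interconverting glucose 1-phosphate and glucose 6-phosphate. It is not on the list of 38. It was 2.49-fold lower, at 19421.8 in control and 7060.5 in depleted muscle, a log2 ratio of -1.32, and ran from -1.55 to -1.14 under the 3 other scalings. Of the listed members only Pgam2 had a lower ratio.

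Glycogen is broken down by phosphorylase, which phosphorylase kinase switches on. Of the 5 genes of breakdown, 4 were lower, with a median of -0.33. Pygm, the muscle phosphorylase lost in McArdle disease, was at 11117.8 in control and 7651.4 in depleted muscle (-0.38). Pygb, the brain isoform, was at 51.0 and 66.2 (0.18).

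Phkg1, the catalytic subunit of muscle phosphorylase kinase, was 2.13-fold lower, at 2088.1 in control and 968.7 in depleted muscle, a log2 ratio of -1.09. It came within 2-fold with scaling to the median (-0.77) and with the local background subtracted (-0.53). The regulatory subunits differed less: Phka1 was at 717.0 and 573.1 (-0.32). Phkb was at 239.7 and 181.0 (-0.33).

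The fourth subunit of phosphorylase kinase is calmodulin, which senses calcium and serves many other enzymes. Calm2 was 2.38-fold lower, at 3290.7 in control and 1404.5 in depleted muscle (-1.25), and Calm3 was at 296.3 and 133.7 (-0.90). The catalytic subunit, Calm2 and Calm3 were thus lower by ratio than Phka1 and Phkb in the main setting. With the local background subtracted Phkb was at -1.57, below Phkg1 at -0.53.

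Synthesis and breakdown genes together, 11 members, had a median of 0.06, with 5 lower and 6 higher. The 5 lower genes were Pygm, the 3 subunits of phosphorylase kinase and Ppp1r3c. Over the 10 of these genes at or above the median intensity, without Pgm2, the median was -0.13. With 5 genes lower and 6 higher, the sign of the median rests on any 1 of the higher genes.

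**Figure D3:**
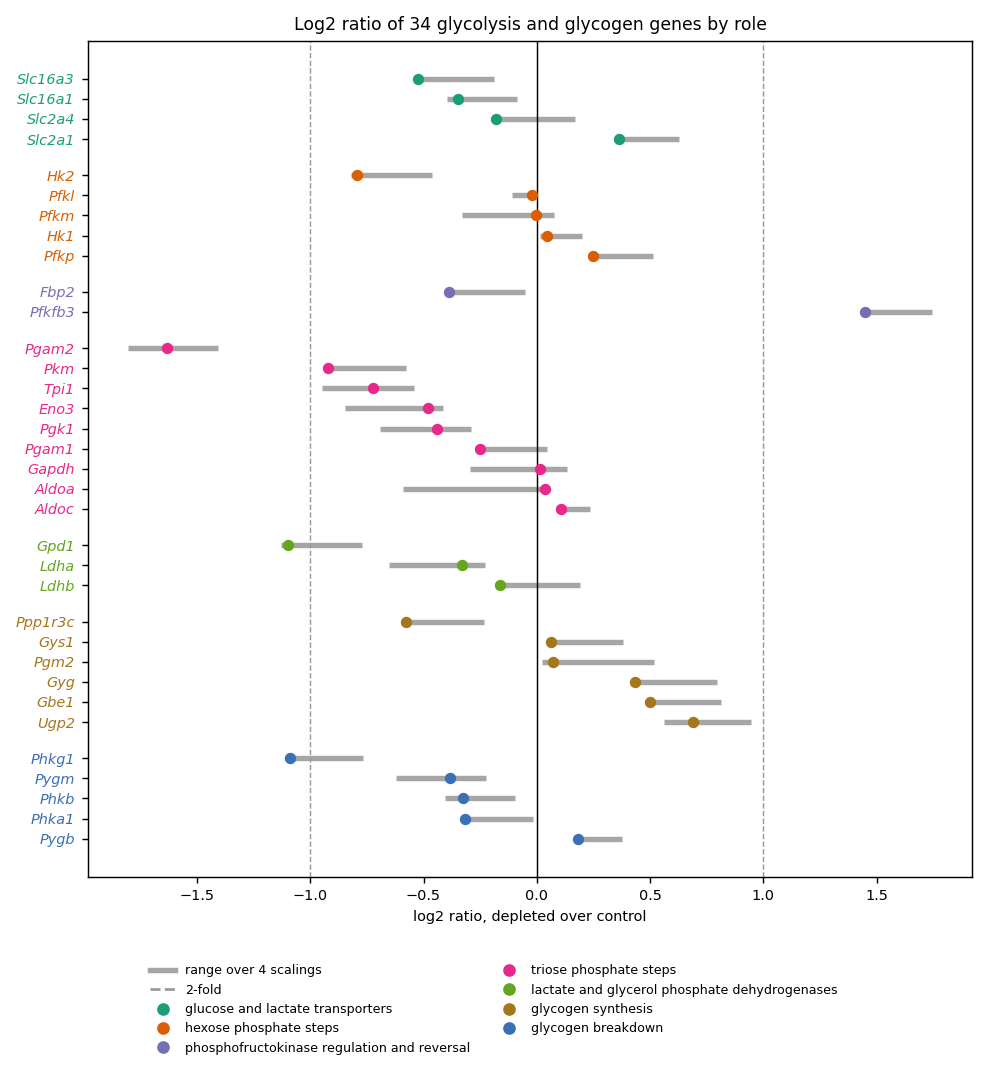
Log2 ratio of depleted over control of the 34 members by role (points, main setting, 1 array per group) with the range over the main setting, scaling to the median, cyclic loess and the authors' processed values (grey bars); dashed lines mark 2-fold. The bars of Slc2a4, Pfkm, Pgam1, Gapdh, Aldoa and Ldhb cross 0, while that of Pgam2 runs from -1.80 to -1.41 and that of Pfkfb3 from 1.45 to 1.75.

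Of 76 other genes of the pathway and its control that are not on the list of 38, 64 had a probe. Past 2-fold, 6 of them were lower and 2 higher, and their median was -0.03. Besides Gpd2, the other glycolysis genes included Bpgm, which makes 2,3-bisphosphoglycerate in red cells and was 2.49-fold lower, at 931.1 in control and 350.4 in depleted muscle (-1.32). Tigar, a fructose 2,6-bisphosphatase that opposes Pfkfb3, was at -0.31. Of the 13 measured genes of that list 12 were lower by sign, against 52.4% of all genes compared. Their median was -0.05, and most were dim.

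Red cell markers were lower in the same comparison. All 7 measured of 10 were lower, with ratios from -3.30 to -0.11, and their summed processed intensity was 33937.7 in control muscle and 6100.4 after depletion. Among them the globins Hbb-bt and Hbb-b2, whose probes can share signal, were lowest, at -3.30 and -2.51. The part of red cell RNA in the value of Bpgm was not tested. None of the 7 was below background.

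Among other glycogen genes, Pgm1, Calm2 and Calm3 had the largest ratios of the 16 measured. Gaa, the lysosomal glucosidase that degrades glycogen outside the phosphorylase route and is lost in Pompe disease, was 1.79-fold higher, at 948.7 in control and 1824.7 in depleted muscle (0.84). Stbd1, which binds glycogen and is linked to its transport to lysosomes, was at 406.2 and 369.3 (-0.16). With scaling to the median Stbd1 was at 0.14, so it had no settled direction.

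In glucose transport, Txnip, an arrestin-like protein that restrains glucose uptake, was 3.79-fold higher, at 1134.5 in control and 4572.0 in depleted muscle (1.92). Its ratio exceeded that of every listed member. Slc37a4, the glucose 6-phosphate transporter of the endoplasmic reticulum, was 2.21-fold lower, at 331.2 and 121.7 (-1.14). Slc2a12, a further glucose transporter, was at 169.3 and 101.3 (-0.52). The 11 measured genes of this list had a median of 0.05.

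Among 24 measured regulators, Egln3, an oxygen-sensing prolyl hydroxylase and a hypoxia target, was 2.44-fold higher, at 168.8 in control and 501.8 in depleted muscle (1.29). Hif1a, the oxygen-regulated factor that drives many glycolytic genes and is controlled mainly as a protein, was at 52.9 and 64.5 (0.14). Prkag3, the AMP kinase subunit of glycolytic fibres, was 2.18-fold lower, at 265.7 and 91.9 (-1.12). Ppargc1a, a coactivator of oxidative metabolism, was 1.94-fold lower, at 427.0 and 197.3 (-0.96).

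The regulators as a list had a median of -0.01, with 13 lower and 11 higher. Mef2c, a MEF2 factor of muscle, was at 1266.8 in control and 677.7 in depleted muscle (-0.88), while Mef2a was at 214.9 and 236.0 (0.10). Mef2d, like Mef2c, was lower, at 265.1 and 179.6 (-0.45). Mef2a was thus the only one of these MEF2 factors that was not lower in the main setting. Klf15, a glucocorticoid-induced factor of muscle metabolism, was at 237.3 and 403.0 (0.63).

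**Figure D4:**
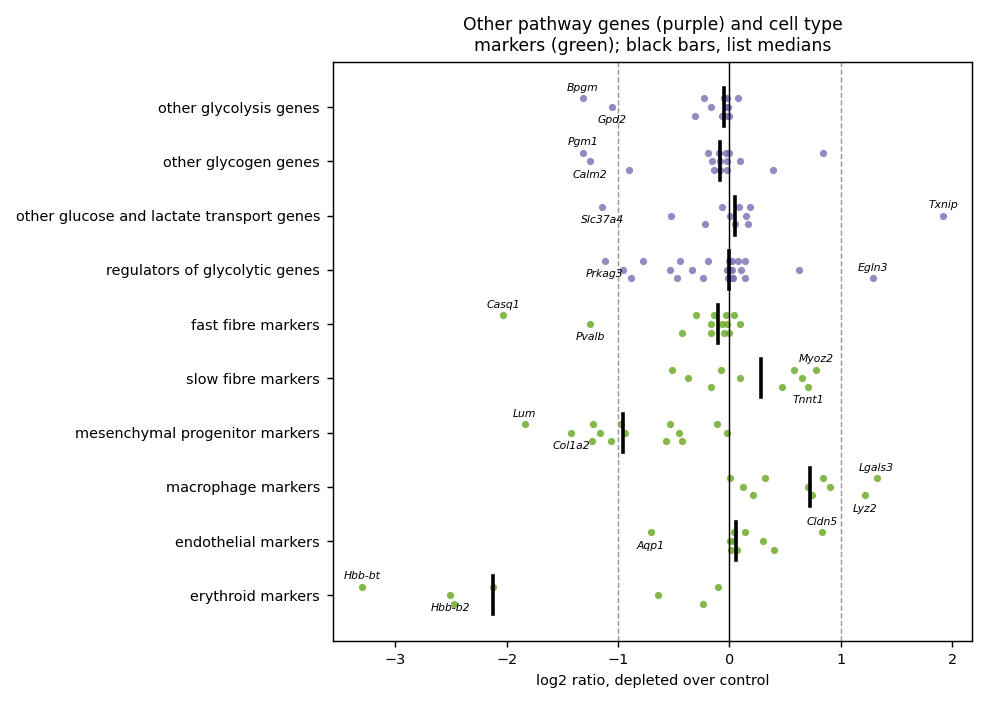
Log2 ratio of depleted over control (horizontal axis, 1 array per group) of each measured gene of the other pathway lists (purple) and of cell type markers (green), with list medians as black bars and dashed lines at 2-fold. Txnip (1.92) and Egln3 (1.29) lie above 2-fold among pathway genes, and the medians of mesenchymal progenitor (-0.95) and red cell markers (-2.13) lie lowest.

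The labels of tissue and genotype were checked against markers. All 14 fast fibre and 10 slow fibre markers were above background on both arrays. So were 17562 of all 19321 named genes, and passing this limit therefore says little about the tissue. All 14 measured mesenchymal progenitor markers of 15 were lower in depleted muscle, with a median of -0.95 and a range from -1.84 to -0.02. Their summed processed intensity was 24656.3 in control and 12169.6 in depleted muscle. Pdgfra was at 273.1 and 116.6, 1.91-fold lower, and the matrix genes Lum and Col1a2 had the lowest ratios, -1.84 and -1.42.

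Fibre-type markers are given because glycolytic enzymes are most abundant in fast fibres. Fast fibre markers were lower in 11 of 14 genes, with a median of -0.10, a range from -2.03 to 0.10 and summed processed intensities of 456878.9 in control and 325585.0 in depleted muscle. Casq1 (-2.03) and Pvalb (-1.25) were the lowest, while the fast myosin heavy chains Myh4, Myh1 and Myh2 were at -0.16, -0.43 and -0.05. In the main setting the genes from aldolase to pyruvate kinase had a median of -0.44, beside that of -0.10. With scaling to the median the fast fibre markers were at -0.15 and these genes at -0.29, with cyclic loess at -0.59 and -0.69, in the processed values at -0.46 and -0.61, and with the local background subtracted at -0.19 and 0.20.

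Slow fibre markers were higher in 6 of 10 genes, with a median of 0.29, a range from -0.51 to 0.78 and sums of 29695.5 and 35605.9; Myoz2 was at 0.78 and Tnnt1 at 0.71, while the slow myosin heavy chain Myh7 was the lowest at -0.51, followed by Casq2 (-0.37), Myl3 (-0.16) and Myl2 (-0.08). With the local background subtracted the median of the list was -0.73. The part of fibre type in the values of the glycolytic genes was not tested.

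Isoforms that are also made in cells other than fibres had no common direction in the main setting. Slc2a1 (0.36), Pfkp (0.25), Pygb (0.18) and Aldoc (0.11) were higher, and Pgam1 (-0.25), Slc16a1 (-0.35) and Ldhb (-0.16) were lower. The dim Hk1 (0.04) and Pfkl (-0.02) were near 0. With scaling to the median Pgam1 was at 0.05, Slc16a1 at -0.09 and Ldhb at 0.19. Pfkfb3 (1.45), too, is made in other cells. Macrophage markers were higher in 10 of 10 genes, with a median of 0.72, a range from 0.00 to 1.32 and summed intensities of 3341.2 in control and 7469.5 in depleted muscle; Lgals3 (1.32) and Lyz2 (1.22) were the highest. Endothelial markers were higher in 9 of 10 genes, with a median of 0.06, a range from -0.71 to 0.83 and sums of 8858.7 and 8334.8; Cldn5 was at 0.83 and Aqp1 at -0.71. The part of these cells in the values of the members was not tested. Several glycolytic genes, Gapdh and Pgk1 among them, have processed pseudogenes or close paralogs that a probe may also bind; the probes' sequences were not used here, and this was not tested.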

How the data were processed

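RNA of 2 gastrocnemius samples was amplified to amino allyl RNA, coupled to Cy5 and hybridised to 1 array each, per the labels' protocols. The scanner tables hold spot intensity, the median pixel at 635 nm combined over 3 gains and not background-subtracted, per the file headers. The authors' deposited table holds processed intensity values whose steps the sources used here do not state. On each array these values follow a line in the scanner value: the spot less the blanks' mean, times 1.27 on the control and 0.939 on the depleted array, with a median of 25 on both and near-blank spots left empty. This fixes its scale and direction.

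Spots were corrected with normexp (limma 3.58.1, R 4.3.3, offset 50), log2-transformed and quantile-normalized (23473 probes). The brightest probe stood for a gene. Above background meant over the mean of the blanks by more than 2 SD, 37.4 on the control and 38.5 on the depleted array, which 92.6% and 92.8% of probes passed. Genes above background on either array (18498) were compared, and a value below background was raised to the lowest value above it. All 35 member probes matched RefSeq by Entrez gene. The normalization and counting were run on simulated data in which only bright probes were changed, all by more than 2-fold. That run does not cover dim genes, changes near 2-fold or differences between animals. Python 3.11.15, pandas 2.3.3, numpy 2.4.6 and matplotlib 3.10.9 were used.

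The members and lists were chosen with earlier results of these data known. The rule for named genes gives all measured members, the 3 genes with the largest ratio of each other pathway list and 2 of each marker list. Named beyond it were Gpd1l, Hif1a, Mef2a, Mef2c, Mef2d, Klf15, Gaa, Stbd1, Pdgfra, Casq2, Myl2, Myl3, Myh7 and the fast myosins. These genes were chosen after their values were seen. So were the bright genes set beside the members: the brightest 10% were taken first and then replaced, for reasons of number formatting only, by the brightest 20%, and the 2-fold counts of both are given. The alternatives were an offset of 16, no correction, subtraction of the blanks or of the local background column (floor 1), scaling to the median, cyclic loess, the processed values, the mean of a gene's probes, 3 other filters on dim genes and a threshold of 1.5-fold. Precision is limited by the number of arrays.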

Additional observations from a re-analysis of the deposited data

How the results depend on the processing

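No paired analysis was possible because there was 1 array per group. The count of members at least 2-fold lower (3) was 1 with scaling to the median, 7 with the local background column subtracted and 6 at 1.5-fold, the last by construction; that of members at least 2-fold higher (1) was 5 with the local background subtracted and 2 at 1.5-fold. The median over members (-0.22) was -0.030 with scaling to the median, -0.10 with the local background subtracted, -0.32 with cyclic loess and -0.32 over the 31 members at or above the median intensity. The median of glycolysis members (-0.25) was -0.054 with scaling to the median, -0.37 in the authors' processed values and 0.20 with the local background subtracted. That of glycogen members (0.06) was -0.28 with the local background subtracted and -0.13 over brighter genes, where fewer genes were tested. With the local background subtracted Ldhb was at 2.28, Gyg at -2.39, Ppp1r3c at 1.02 and Pygb at -1.76. The cause was not tested in the other cases; the local background column tracked the spots' signal (Spearman's rho over the spots of each array 0.942 and 0.969), and with it subtracted 2021 genes were past 2-fold lower and 1940 higher. Of the 34 members, 13 changed sign with the local background subtracted, 5 with scaling to the median and 2 each with cyclic loess and in the processed values. Of 337 values of single members under the other alternatives, 335 stayed on their side of 2-fold and 2 did not. Many of these values could not move. The 3 filters on dim genes repeat the main ratio, and the mean of probes does so for the 33 members with 1 probe. Signal over background limits the dimmest members, such as Hk1, Pfkl and Pgm2.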
